A study of Mus musculus with 4 samples.

Results

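Ubiquitin conjugating enzymes and deubiquitinases work at opposite ends of the ubiquitin cycle. An E2 conjugating enzyme takes activated ubiquitin from an E1 enzyme and passes it, usually with the help of an E3 ligase, to a target protein. A deubiquitinase cuts ubiquitin off again, which can spare a protein from the proteasome or end a signal. In the intestinal epithelium, as in other renewing tissues, the balance of these reactions sets the life span of many growth regulators and receptors. The genes were chosen by symbol alone, as protein-coding genes whose symbols begin with Ube2 and a letter (E2 class) or with Usp and a number or Otud (deubiquitinase class), with Usp9y left out. This gave 100 genes of 21900 protein-coding genes, 37 in the E2 class and 63 in the deubiquitinase class. The deubiquitinase class held 55 ubiquitin-specific proteases (USP) and 8 members of the ovarian tumour domain (OTU) family. Not every member fits its class name. Usp6nl encodes a GTPase-activating protein for Rab proteins, and Ube2cbp encodes a protein named for its binding to UBE2C. Ube2m and Ube2f conjugate NEDD8, Ube2l6 conjugates ISG15, and Ube2v1 and Ube2v2 encode E2-like partners that lack the catalytic cysteine.

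RNA crosslinked to MSI2, a Musashi family RNA-binding protein, was mapped by CLIP-seq in intestinal epithelial cells of C57BL6 mice. In this assay ultraviolet light joins protein and RNA, an MSI2 antibody pulls the complex down, and the attached RNA is sequenced. There were 2 wild-type (WT) libraries, which per the labels came from crypts, and 2 TRE-Msi2 libraries, which came from total epithelium after 24 hours of doxycycline. TRE is the promoter that doxycycline switches on; the labels used here do not name the driver of its transactivator. Genotype, tissue fraction and doxycycline differed together and cannot be told apart, since no doxycycline is recorded for WT. The authors pooled the libraries of a genotype into 1 peak list each, so values carry no spread between replicates and genotypes are compared only by description. Peaks were not set against input or against RNA levels, and abundant transcripts can give peaks for that reason alone.

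The WT list held 12061 peaks with a median score of 19, and the TRE-Msi2 list 16939 peaks with a median score of 24.7. The score is the authors' own value for each peak and acts like a count of reads in a 200-nt bin, averaged where adjoining bins were merged into a wider peak. Single-bin peaks scored at least 15 in WT and at least 20 in TRE-Msi2. The depth of the libraries is unknown. Of 8 epithelial marker genes 7 held a WT peak and 8 a TRE-Msi2 peak, with Epcam at 81.6 and 101.5, while 0 of 5 stromal, 0 of 3 muscle, 0 of 3 endothelial and 0 of 4 neuronal and glial markers held one in either list. Of 5 immune markers 2, Cd74 and Lyz2, held peaks in both lists. A peak was assigned to each gene whose mm10 span it touched by 1 base or more, whatever its strand.

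Peaks were found over a larger share of E2 genes than of deubiquitinase genes. In the WT list 18 of 37 E2 genes (48.6%; exact Clopper-Pearson 95% interval 31.9% to 65.6%) and 19 of 63 deubiquitinase genes (30.2%; 19.2% to 43.0%) held a peak, where 20.3% of all protein-coding genes did. In the TRE-Msi2 list the counts were 22 of 37 (59.5%; 42.1% to 75.2%) and 22 of 63 (34.9%; 23.3% to 48.0%), against 24.9% of all protein-coding genes. The E2 share therefore stood 18.5 percentage points above the deubiquitinase share in WT and 24.5 points above it in TRE-Msi2. An alternative left out E2-class genes set apart as not acting on ubiquitin and, from the deubiquitinase class, only the Usp17l genes. The difference was then 13.9 points in WT and 18.7 points in TRE-Msi2. Usp6nl and Usp18, the protease of ISG15, stayed in that count. Leaving out Usp6nl alone gave 19.6 and 24.0 points. The intervals of the classes overlapped in both lists. They cover counting error only, and genes are not replicates, so the class difference is a description of these lists. Peaks in both lists were held by 17 E2 genes (45.9%) and 17 deubiquitinase genes (27%), against 19.1% of all protein-coding genes.

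E2 genes had the shorter spans. The median span was 30.4 kb for E2 genes, 46.0 kb for deubiquitinase genes and 17.1 kb for all protein-coding genes, and longer spans offer more room for a peak. Among genes under 20 kb, 5 of 14 E2 and 1 of 15 deubiquitinase genes held a WT peak, against a background of 13.3%, and 8 and 1 held a TRE-Msi2 peak, against 17.2%. The deubiquitinase with a peak in this range was Usp1. The 15 short deubiquitinase genes include the 5 genes of the multicopy Usp17l family, none of which held a peak. Between 20 and 60 kb the WT counts were 8 of 15 E2 and 7 of 26 deubiquitinase genes (background 25.4%), and the TRE-Msi2 counts were 10 and 9 (background 30.6%). Above 60 kb the classes came close in TRE-Msi2 but less so in WT. There 5 of 8 E2 and 11 of 22 deubiquitinase genes held a WT peak (background 33.1%), while 4 and 12 held a TRE-Msi2 peak (background 38.6%). The difference, E2 minus deubiquitinase, was 12.5 points in WT and -4.55 points in TRE-Msi2. Deubiquitinase genes with a WT peak had a median span of 68.3 kb and those without one 29.6 kb, where the E2 medians were 33.1 kb and 23.7 kb.

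**Figure D1:**
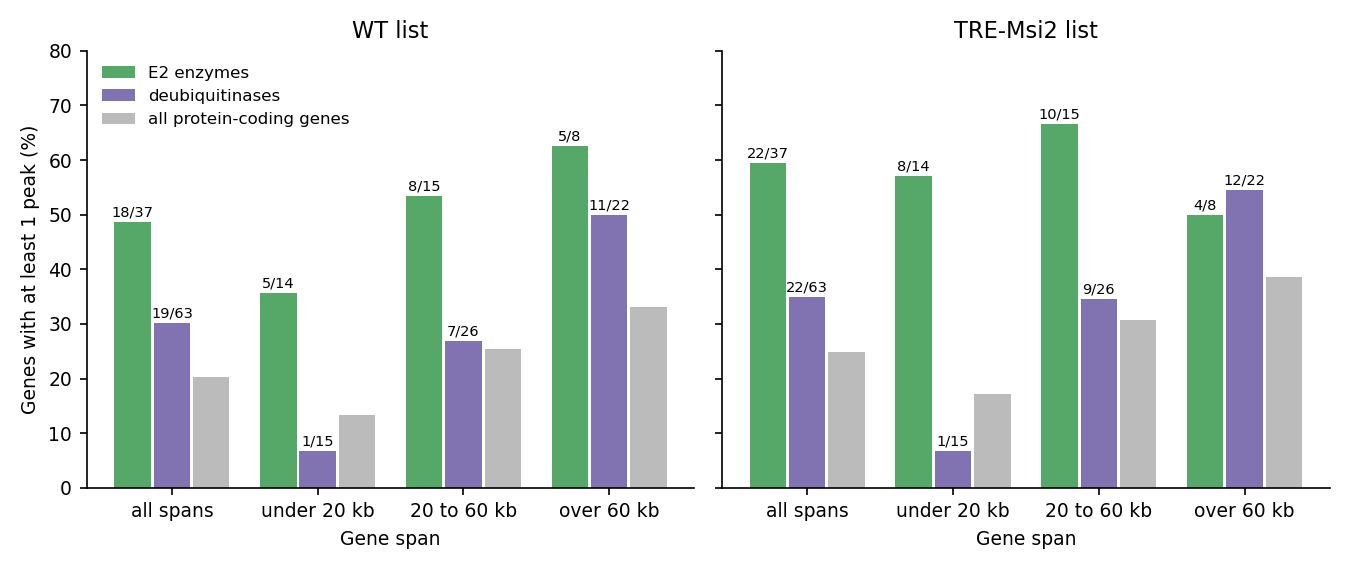
Bars show the share of genes with at least 1 peak (%, vertical axis) by gene span (horizontal axis) for E2 enzymes, deubiquitinases and all protein-coding genes, in the WT list (left) and the TRE-Msi2 list (right); fractions above the bars give genes with a peak over genes in the class, and there are no error bars because each genotype has 1 pooled list. The E2 bar is the higher of the enzyme classes in every span range except over 60 kb in TRE-Msi2, with 4 of 8 against 12 of 22.

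The strength of the peaks was compared by the highest score of each gene. Its median was 24 for the 18 E2 genes with a WT peak and 20 for the 19 deubiquitinase genes, and 21 for all protein-coding genes with a peak. In TRE-Msi2 the medians were 29.3 over 22 E2 genes, 25 over 22 deubiquitinase genes and 28 over all protein-coding genes with a peak. Most genes held few peaks. The 34 WT and 47 TRE-Msi2 peaks of E2 genes came to 1.89 and 2.14 per gene with a peak, and the 40 and 54 of deubiquitinase genes to 2.11 and 2.45, against 1.90 and 2.21 over all protein-coding genes. Genes with a single peak made up 8 of 18 E2 (44.4%) and 10 of 19 deubiquitinase genes (52.6%) in WT, against 58.9% of all protein-coding genes with a peak. In TRE-Msi2 they made up 10 of 22 (45.5%) and 11 of 22 (50%), against 53.7%.

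Most E2 enzymes that build particular ubiquitin chains held peaks. Of 7 chain builders 6 held a WT peak and 5 a TRE-Msi2 peak, Ube2s being the member without any. The shares over all protein-coding genes were 20.3% and 24.9%. Ube2k, which forms the chains that mark proteins for the proteasome, lies on chromosome 5 from 65537245 to 65598989 and held the most peaks of the E2 class, 5 in WT and 6 in TRE-Msi2. Its highest WT score, 24, was at 65565962 to 65566161, where TRE-Msi2 scored 34, and its highest TRE-Msi2 score, 38, was at 65594362 to 65594561, where WT scored 20. Of the 5 WT peaks 4 were overlapped by a TRE-Msi2 peak, and 2 of those lay 27.5 and 32.9 kb before the end of the gene. Ube2r2, a partner of cullin ligases, had the highest score of the class in both lists from a single site, at 41191168 to 41191367 of chromosome 4, with 36 in WT and 53 in TRE-Msi2. That site lay 2.10 kb before the gene end and stood at percentile 95.3 of all WT scores and 97.9 of all TRE-Msi2 scores. Ube2g1 held 1 WT peak with a score of 15, the lowest that a single bin can have there, and no TRE-Msi2 peak.

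The subunits of the E2 enzyme whose chains serve in DNA repair and NF-kappaB signalling all held peaks near the ends of their genes. Ube2n encodes the catalytic subunit and Ube2v1 and Ube2v2 encode its alternative partners. Ube2n, on chromosome 10, held a WT peak with a score of 25 at 95541367 to 95541766, where TRE-Msi2 scored 42.5. Its highest TRE-Msi2 score was 47 at 95542767 to 95542966, inside a 600-nt WT peak that averaged 13.4. Ube2v1, on chromosome 2, held the same 2 peaks in both lists, at 167608501 to 167608700 with 15 in WT and 25 in TRE-Msi2, and at 167608901 to 167609100 with 32 and 33. The stronger Ube2v1 site was thus nearly level between the lists while its neighbour differed more. Ube2v2, on chromosome 16, held 3 peaks in each list, of which those at 15551308 to 15551507 (19 and 31) and 15552508 to 15552707 (24 and 28) were shared. All 7 WT and 8 TRE-Msi2 peaks of these genes lay within 5.42 kb of the gene ends. Ube2v1 and Ube2v2 are similar in sequence and the treatment of reads that fit both genes is not stated in the labels or files used here.

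The 3 E2 genes listed for roles on chromatin held peaks in both lists, where 19.1% of all protein-coding genes did. Ube2a and Ube2b encode the paralogs that ubiquitinate histone H2B and the sliding clamp PCNA. Ube2b, on chromosome 11, held 4 peaks in each list at the same 4 positions. Their scores, ordered from the gene end inward, were 34, 16.7, 15 and 16 in WT and 42, 39.5, 25 and 29 in TRE-Msi2. The peak nearest to the end, 0.461 kb from it at 51985499 to 51985698, was highest in both lists. Ube2a, on chromosome X, held 1 WT peak with a score of 17 at 36883006 to 36883205, where TRE-Msi2 scored 34, and a second TRE-Msi2 peak with a score of 20. Ube2h, on chromosome 6, held 1 peak at the same place in both lists, with 23 in WT and 29 in TRE-Msi2.

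Of the 7 genes of the UBE2D and UBE2E families, general E2 enzymes that work with many ligases, 4 held a WT peak and 5 a TRE-Msi2 peak. Over all protein-coding genes the shares were 20.3% and 24.9%. Ube2d3, on chromosome 3, held 2 WT peaks, with scores of 21 and 16.2, and 5 TRE-Msi2 peaks with scores from 20 to 22.3. The 3 added peaks lay 8.08, 13.1 and 28.5 kb before the gene end, whereas those found in both lists lay within 5.28 kb of it. Ube2d2a, on chromosome 18, held 1 WT peak at 16 and 3 TRE-Msi2 peaks, the highest at 29.7. Ube2d1 and Ube2d2b held none. The UBE2D genes are close paralogs, so reads may be shared among them. Ube2e2 stood apart by position. Its 2 WT peaks (19 and 13.7) and 2 TRE-Msi2 peaks (31 and 26.6) lay 31.6 to 33.6 kb after the start of a 321-kb gene span on chromosome 14 and at least 287 kb before its end. Ube2e3, on chromosome 2, held a peak centred 8.44 kb before the gene end in both lists, with 27 in WT and an average of 19.5 over a wider TRE-Msi2 peak.

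Some enzymes that conjugate proteins related to ubiquitin held peaks as well. Ube2f, an enzyme of NEDD8, held no WT peak and 1 TRE-Msi2 peak with a score of 34 at 91285624 to 91286023 of chromosome 1, the highest of the E2 genes found in 1 list. Ube2l6 held 1 peak in each list, with 24 in WT and an average of 22 over a wider TRE-Msi2 peak. Its relative Ube2l3 held 2 in each, with top scores of 29 and 20 at different sites. The WT site with 29 lay within a TRE-Msi2 peak of 1000 nt that averaged 19.2. Ube2m held none, and Ube2z held 1 TRE-Msi2 peak at 20.

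Of 4 E2 genes of endoplasmic reticulum quality control, 2 held a WT peak and 2 a TRE-Msi2 peak. For this and the next role groups the shares over all protein-coding genes were 20.3% in WT and 24.9% in TRE-Msi2. Ube2j1 held peaks in both lists (top scores 18 and 24.5), Ube2j2 held 2 TRE-Msi2 peaks (21 and 20), Ube2g1 held the WT peak given above and Ube2g2 held none. Of 3 cell cycle E2 genes 1, Ube2c, the E2 of the anaphase-promoting complex, held a peak, with 15 in WT and 24 in TRE-Msi2. In both lists that peak was antisense to the gene, so it does not measure its transcript. Of 5 large or atypical E2 genes 1, Ube2q1, held a peak, in TRE-Msi2, with a score of 14.3. Its percentile of 0.239 among TRE-Msi2 scores was the lowest of any member's top peak. In all, 14 E2 genes held no peak in either list, among them Ube2o, Ube2w, Ube2q2, Ube2t, Ube2u and both copies of Ube2dnl.

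**Figure D2:**
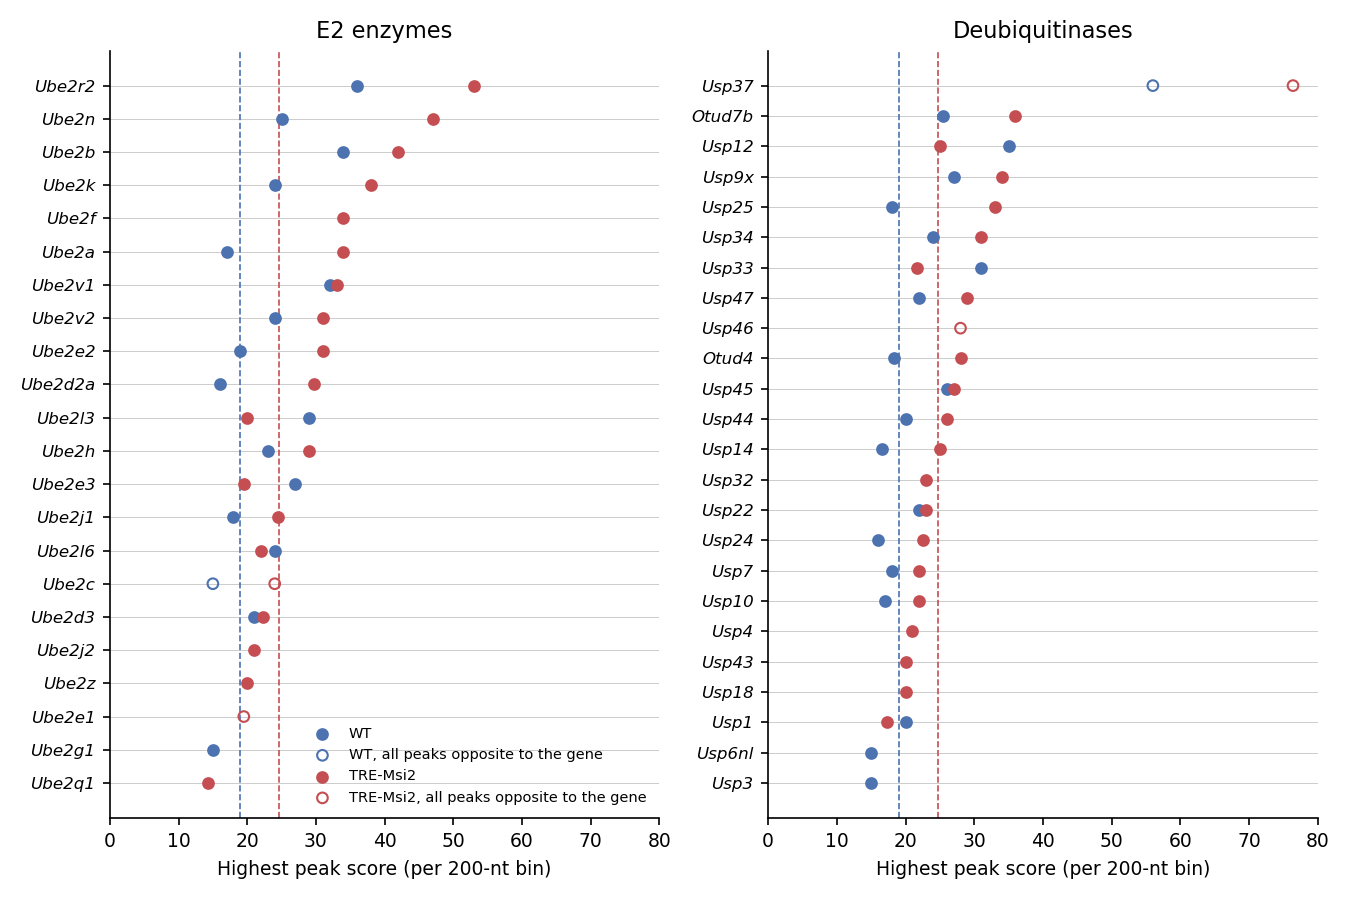
Points show the highest peak score of genes with a peak (horizontal axis, score per 200-nt bin) for E2 enzymes (left) and deubiquitinases (right), in blue for WT and red for TRE-Msi2; open circles mark genes whose peaks all lie opposite to the RefSeq strand, and dashed lines mark the median score of each whole list, 19 and 24.7. Ube2r2, Ube2n and Ube2b lead the E2 panel with TRE-Msi2 scores from 42 to 53, whereas the leading deubiquitinase, Usp37, is shown by open circles alone.

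Usp9x was the deubiquitinase with the most peaks. It encodes a large protease that acts on Smad4, beta-catenin and endocytic proteins, and it lies on chromosome X from 13070982 to 13173328. It held 9 peaks in each list, all on the plus strand. Of the 9 WT peaks 7 were overlapped by a TRE-Msi2 peak. The highest was at 13154075 to 13154274, 19.2 kb before the gene end, with 27 in WT and 34 in TRE-Msi2. The peaks were spread over a stretch that began 65.6 kb before the gene end, and its last 2 kb held 1 of the 9 WT and none of the 9 TRE-Msi2 peaks.

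Other deubiquitinases linked to TGF-beta and Wnt signalling had peaks inside the gene as well. Usp34, an axin deubiquitinase on chromosome 11, held 2 WT peaks with scores of 24 and 19 and 5 TRE-Msi2 peaks with scores from 20 to 31. The shared sites at 23333601 to 23333800 (24 and 31) and 23385001 to 23385200 (19 and 24) lay 157 and 105 kb before the gene end. The last of the TRE-Msi2 peaks of Usp34 also touched Ahsa2. Usp25, on chromosome 16, held 3 WT peaks with scores from 16 to 18 and 5 TRE-Msi2 peaks, of which 2 scored 33. Its interior site at 77075156 to 77075355 scored 16 in WT and 33 in TRE-Msi2, a ratio of 2.06, the highest of any member site compared at the same position. Usp4 held 1 TRE-Msi2 peak at 21. Usp11 and Usp15, other deubiquitinases of TGF-beta receptors, held no peak.

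Of 6 deubiquitinases of p53 and genome stability, 4 held peaks in both lists, where 19.1% of all protein-coding genes did. Usp7, which removes ubiquitin from p53 and its ligase MDM2, lies on chromosome 16 and held 2 WT peaks (18 and 16) and 3 TRE-Msi2 peaks (22, 21 and 21), with the site at 8692308 to 8692507 in both. Usp10, another p53 deubiquitinase, held 1 peak 0.359 kb before the gene end in both lists, with 17 in WT and 22 in TRE-Msi2. Usp1, the enzyme for PCNA and FANCD2, held 1 peak in each list, at 20 in WT and an average of 17.3 over a wider TRE-Msi2 peak. Usp24 held 1 shared peak, with 16 in WT and 22.5 in TRE-Msi2, and in each list a further peak opposite to the gene at a different place.

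Among deubiquitinases of receptors and endosomes, Usp12 had the highest WT score of the class apart from Usp37. That score was 35 at 146736825 to 146737024 of chromosome 5, 2.12 kb before the gene end, at percentile 94.7. In TRE-Msi2 it lay within a peak of 1000 nt that averaged 19.9, and the 5 TRE-Msi2 peaks of Usp12 scored between 19.9 and 25. Usp33 showed the same order, with 31 in WT and 21.7 in TRE-Msi2 over the same 400 nt of chromosome 3. Scores of merged peaks are averages, so these values do not compare the highest bins. Usp46, a relative of Usp12, held 1 TRE-Msi2 peak at 28 that lay opposite to the gene. Usp2, Usp8 and Usp20 held none.

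Of 9 deubiquitinases of histones 3 held a WT peak and 2 a TRE-Msi2 peak, where 20.3% and 24.9% of all protein-coding genes did. Usp22, of the SAGA coactivator complex, held 1 peak at the same place of chromosome 11 with 22 in WT and 23 in TRE-Msi2. Usp44 held 1 with 20 and 26. Usp3 held 1 WT peak at 15 and none in TRE-Msi2. The other 6 of the 9 histone deubiquitinases held none. Usp14, which trims ubiquitin chains on the proteasome, held 1 peak over the same 400 nt of chromosome 18 with 16.5 in WT and 25 in TRE-Msi2. Usp45 and Usp47 held peaks in both lists, at 26 and 27 and at 22 and 29. Usp30, of mitochondria, held none.

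Of the 8 OTU family genes 2, Otud4 and Otud7b, held peaks, each in both lists, where 19.1% of all protein-coding genes did. Otud7b, a regulator of NF-kappaB signalling on chromosome 3, held 1 peak at 96159478 to 96159677 with 25.5 in WT and 36 in TRE-Msi2, the highest TRE-Msi2 score of a deubiquitinase apart from Usp37. Otud4, on chromosome 8, held 3 WT peaks with scores from 15 to 18.3 and 5 TRE-Msi2 peaks with scores from 20 to 28. Its site at 79653302 to 79653501, 24.4 kb before the gene end, had the lowest WT score of the gene, 15, and its highest TRE-Msi2 score, 28.

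The highest scores in the deubiquitinase class did not lie on the strand of their gene. Usp37 lies on the minus strand of chromosome 1, and its 5 WT and 3 TRE-Msi2 peaks were all on the plus strand. The highest, at 74434827 to 74435626, scored 56 in WT and 76.4 in TRE-Msi2. It covered the last bases of Vil1, the gene of the microvillus protein villin, which runs on the plus strand from 74409384 to 74435560 and overlaps the edge of the Usp37 span. The 2 WT peaks that followed began 467 and 1067 bases beyond the annotated end of Vil1, and 1 TRE-Msi2 peak with a score of 24.9 covered both. The remaining 2 WT peaks and 1 TRE-Msi2 peak lay in Cnot9, also on the plus strand. The Usp37 values therefore describe plus-strand RNA of this region and give no measurement of Usp37 RNA. For the 78 members with a strand in the RefSeq promoter table, the gene strand carried 45 of 52 peaks in WT and 65 of 73 in TRE-Msi2, where the shares were 82.4% and 84.2% over all such protein-coding genes. By class this was 26 of 27 WT peaks of E2 genes and 19 of 25 of deubiquitinase genes; 5 of the 6 exceptions among deubiquitinases were the peaks of Usp37. Without peaks on the opposite strand, 17 E2 and 18 deubiquitinase genes held a WT peak, and 20 and 20 a TRE-Msi2 peak, where the background was 17.3% and 21.3%. Members with no strand in the RefSeq promoter table, Usp9x among them, kept all their peaks in this count. The genes lost were Ube2c and Usp37 in WT, and Ube2c, Ube2e1, Usp37 and Usp46 in TRE-Msi2.

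More of the E2 peaks than of the deubiquitinase peaks lay in the last 2 kb of the gene, but the size of that difference changed with the window. Along the direction in which the reads run, 16 of 34 WT peaks of E2 genes (47.1%; 29.8% to 64.9%) and 10 of 40 of deubiquitinase genes (25%; 12.7% to 41.2%) had their middle in the last 2 kb of the span, against 42.9% over all protein-coding genes. In TRE-Msi2 the counts were 20 of 47 (42.6%; 28.3% to 57.8%) and 15 of 54 (27.8%; 16.5% to 41.6%), against 38.1%. In the last 1 kb the classes were close, with 20.6% of E2 and 17.5% of deubiquitinase peaks in WT and 21.3% and 20.4% in TRE-Msi2. In the last 5 kb the shares were 76.5% and 50% in WT and 68.1% and 42.6% in TRE-Msi2. Among the higher-scoring 50% of each list, the last 2 kb held 40% and 37.5% of the peaks in WT and 45.8% and 16.7% in TRE-Msi2. The median distance from the gene end over all peaks of the E2 and deubiquitinase genes was 2.16 kb and 4.40 kb in WT, and 2.79 kb and 13.2 kb in TRE-Msi2. Distances follow the reads, so peaks opposite to the gene, such as those of Usp37, were measured toward the gene start. Without such peaks the last 2 kb held 48.5% of E2 and 29.4% of deubiquitinase peaks in WT, and 44.4% and 31.25% in TRE-Msi2. Here too, members with no strand in the RefSeq promoter table kept all their peaks. Usp9x alone gave 9 of the deubiquitinase peaks in each list. The reference table gives spans and no exons, so whether a peak lay in an untranslated region, a coding exon or an intron was not analysed here. No peak of a member in either list touched a promoter window, and no sequence under a peak was analysed. Members with no strand in the RefSeq promoter table may have no window there.

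**Figure D3:**
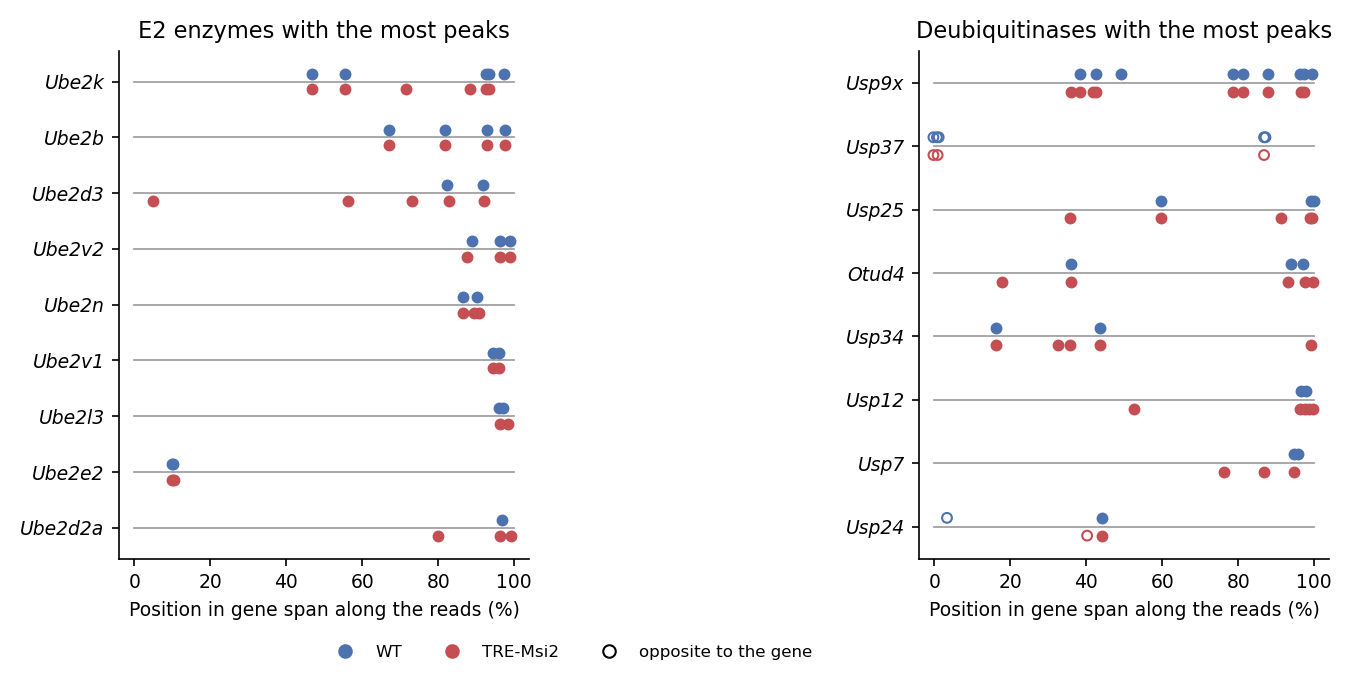
Each line is the span of 1 gene from its start (0%) to its end (100%) in the direction of the reads, for E2 enzymes (left) and deubiquitinases (right) with the most peaks; blue points are WT peaks and red points TRE-Msi2 peaks, placed at the peak middle, and open circles are peaks opposite to the RefSeq strand of the gene. For open circles the direction of the reads runs against the gene, so their right side is the gene start. Peaks of most of these E2 genes gather at the right, with Ube2e2 near the left. Ube2d3 and Ube2k also have peaks far from the end, down to 5.02% and 46.7% of the span. So do Usp9x, Usp34, Usp25 and Otud4, down to 35.9%, 16.3%, 35.7% and 17.7%.

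The lists shared most WT peaks of the members. Of WT peaks of E2 genes 30 of 34 (88.2%; 72.5% to 96.7%) had a TRE-Msi2 peak over them on the same strand, and of those of deubiquitinase genes 30 of 40 (75%; 58.8% to 87.3%), where the share over all WT peaks in protein-coding genes was 91%. In the other direction the shares were 30 of 47 (63.8%) and 29 of 54 (53.7%), against 58.7%. Of the 10 members found in TRE-Msi2 alone, 5 were E2 genes (Ube2f, Ube2j2, Ube2q1, Ube2z and Ube2e1) and 5 deubiquitinases (Usp46, Usp32, Usp4, Usp43 and Usp18), which is 13.5% and 7.94% of the classes against a background of 5.76%. Apart from Ube2f and Usp46 their top scores ran from 14.3 to 23, below the TRE-Msi2 median of 24.7. The peak of Ube2e1 lay opposite to the gene and in Nkiras1, where a WT peak outside the Ube2e1 span overlapped it. The peak of Usp18, the protease of ISG15, also touched the noncoding gene Gm44148, and 1 of the 2 peaks of Usp32 lay opposite to the gene. Ube2g1, Usp3 and Usp6nl held a WT peak alone, each with a score of 15, where 1.2% of protein-coding genes held only WT peaks.

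Where a single-bin peak stood at exactly the same position in both lists, its scores could be set side by side. Over all 3796 such positions with whole-number scores the median ratio of TRE-Msi2 to WT was 1.52 (quartiles 1.30 and 1.74). The 16 positions in 9 E2 genes had a median ratio of 1.60, and 10 of them lay above the overall median. The 16 positions in 11 deubiquitinase genes had a median of 1.30, and 2 of them lay above it, the interior sites of Usp25 and Otud4. These counts include the positions in Ube2c and Usp37, which lay opposite to the gene. Without them the medians were 1.59 over 15 E2 positions and 1.30 over 15 deubiquitinase positions, with 9 and 2 above the overall median. Of the 16 deubiquitinase positions 5 were in Usp9x, with ratios from 1.24 to 1.5. Among E2 genes the highest ratio was 2 in Ube2a (17 and 34; exact 95% interval 1.09 to 3.82) and the lowest 1.03 in Ube2v1 (32 and 33; 0.615 to 1.73). Both intervals include the overall median, and they cover counting error only. Ratios of weak sites are bounded from below, since a site had to reach 15 in WT and 20 in TRE-Msi2 to be listed. The overall ratio mixes depth with any change in binding or transcript amount.

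**Figure D4:**
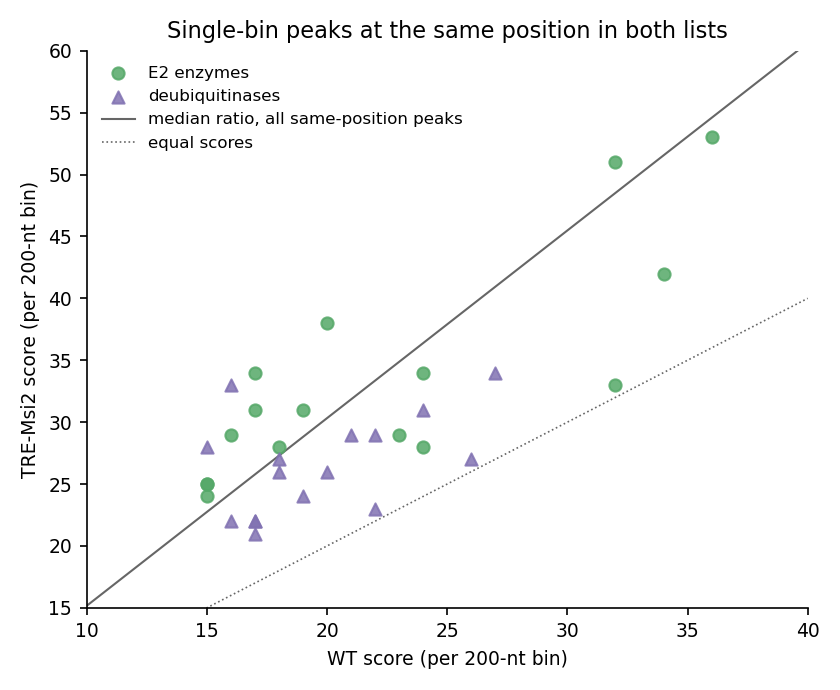
Each point is a single-bin peak of a member at the same position in both lists, with the WT score on the horizontal and the TRE-Msi2 score on the vertical axis (both per 200-nt bin); circles are E2 enzymes, triangles deubiquitinases, the solid line the median ratio of 1.52 over all 3796 such positions, and the dotted line equal scores. Of the circles 10 of 16 and of the triangles 2 of 16 lie above the solid line. The circle of Ube2c and the triangle of Usp37 come from peaks opposite to the gene.

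Other genes of the ubiquitin system were counted in the same way. Of the 4 ubiquitin precursor genes 3 held peaks in both lists, among them Ubb (27.3 and 56.3) and the fusion gene Rps27a (33 and 61). Of 9 E1 genes 2 held a WT peak and 5 a TRE-Msi2 peak. Uba3, the NEDD8-activating subunit, held 0 and 4 peaks, and Uba6 held a WT peak alone. Of 27 HECT and RBR ligase genes 11 held a peak in each list, led by Itch with 6 WT and 11 TRE-Msi2 peaks, top scores 30 and 41. Of 15 cullin scaffold and adaptor genes 4 held a WT and 9 a TRE-Msi2 peak, among them Cul3 (27.5 and 36) and Skp1 (35.6 and 49.6). Of 26 deubiquitinases of other families 6 held a WT peak and 13 a TRE-Msi2 peak, among them Vcpip1 with 3 and 5 peaks and Cyld with 2 in each. These shares ran from 22.2% to 75% in WT and from 40.7% to 75% in TRE-Msi2, against the backgrounds of 20.3% and 24.9%.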

How the data were processed

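Per the labels' protocols, 2 WT and 2 TRE-Msi2 CLIP-seq libraries were made with ultraviolet crosslinking (265 nm, 2 pulses, each of 400 mJ/cm2) and an MSI2 antibody, with the band near 50 kD cut out. Per the submitters' processing notes, cutadapt, TopHat, mm9 and mm10 were used, with no versions given in the sources used here. The authors deposited 1 merged Piranha peak list per genotype, made after removal of duplicate reads per the file names; the other values in its score cell, p-values above 0.05 in 2566 WT and 4774 TRE-Msi2 merged peaks, were used only as an alternative. Whole numbers made up 99.1% of WT and 96.7% of TRE-Msi2 single-bin scores. Peaks were assigned by overlap of at least 1 base with spans of the RefSeq GRCm38.p6 table; gene strands came from the RefSeq promoter table of that build. Shared peaks overlap by 1 base on the same strand. Intervals are exact Clopper-Pearson (95%; for ratios, from the binomial share). The overlap code was checked on simulated peaks.

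In each class the text names the 8 genes with the most peaks, the 8 with the highest score per list, all found in 1 list and all whose peaks touch other spans; further members are named by role group. Some genes enter the counts but are not reported by name here or shown in the plots by gene. Members, lists and rules were chosen with earlier results of these data known. The alternatives varied assignment, strand, score and p-value limits, list length, gene span, membership, overlap and end window; the exclusion of peaks opposite to the RefSeq strand and that of Usp6nl were chosen after seeing the data. Analysis used Python 3.11.15 with pandas 2.3.3.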

Additional observations from a re-analysis of the deposited data

How the results depend on the processing

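No paired analysis was possible because each genotype has 1 pooled list, and for the same reason no library could be left out. Of 126 alternative values 105 kept their direction and stayed within 1.5 times the value reported, or for shares of peaks within its interval. The reversed one was the class difference among genes over 60 kb in TRE-Msi2, at -4.55 percentage points (E2 minus deubiquitinase); among genes under 20 kb it was 29.0 in WT and 50.5 in TRE-Msi2. When only the higher-scoring 50% of each list was kept, 12 E2 and 12 deubiquitinase genes held a TRE-Msi2 peak, the difference fell to 13.4 points, and 11 deubiquitinase genes held a WT peak; 60% of WT and 37.5% of TRE-Msi2 peaks of E2 genes and 50% of WT peaks of deubiquitinase genes were then shared. After cutting the TRE-Msi2 list by score to 12061 peaks, genes found in TRE-Msi2 alone numbered 1 E2 and 2 deubiquitinases, and the shared peaks were 86.7% of TRE-Msi2 peaks for E2 genes and 55% of WT and 70% of TRE-Msi2 peaks for deubiquitinases. E2 peaks in the last 1 kb were 20.6% in WT and 21.3% in TRE-Msi2, against 17.5% and 20.4% for deubiquitinases, and in the last 5 kb 76.5% and 68.1%, against 50% and 42.6%. Causes were not tested; fewer peaks remain in shortened lists. Unknown depth and floors of 15 and 20 limit weak peaks.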

Other observations

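Several values of neighbouring or related genes stood out in these lists. Itch, a HECT ligase, held 6 WT and 11 TRE-Msi2 peaks, more than any E2 enzyme, and Trip12 held 2 and 7. Mysm1, a histone deubiquitinase outside the USP and OTU families, held 1 peak in each list (18 and 34), in both cases on the strand opposite to the gene. The Ube2c peak at 164772701 to 164772900 of chromosome 2 ended within the last bases of the gene on the opposite strand, and the nearest minus-strand gene of the table, Tnnc2, lay 4261 bases away.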
